A study of Mus musculus with 6 samples.

Results

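The genes described here are 10 regulators of myogenesis and myoblast fusion, picked by symbol from the 54532 genes of a count table of mouse muscle RNA. They are the satellite cell genes Pax7, Cdh15 and Sdc4, the myogenic factors Myf5, Myod1, Myog and Myf6 with their partner Mef2c, and the fusion genes Mymk and Mymx. The table holds 6 libraries, 3 from Igf2 cKO muscle (Mck-Cre+; Igf2f/f) and 3 from control muscle (Mck-Cre-; Igf2f/f littermates), all on a C57BL/6 background. Both genotypes carry loxP sites on either side of exon 2 of Igf2, the gene of a fetal growth factor, and differ in the Cre transgene. The muscle creatine kinase promoter that drives this Cre is active in differentiated striated fibres and not known for activity in satellite cells, and the labels do not say which muscle was taken or at what age or sex.

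Skeletal muscle keeps a small reserve of satellite cells, which express Pax7 and lie beside the fibre. On activation they turn on Myod1, and as they withdraw from the cell cycle they turn on Myog. The Myog protein switches on the genes of the contractile fibre together with MEF2 proteins. Committed myoblasts then fuse with each other or with a fibre, which requires the membrane proteins myomaker (Mymk) and myomixer (Mymx). In adult muscle Myf6 (MRF4) and Mef2c are expressed mainly in the fibre itself, so a whole-muscle library mixes transcripts of the fibre with those of a rare cell type.

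Total counts ran from 16184371 to 17503334 in the Igf2 cKO libraries and from 16335647 to 17905203 in the controls. The targeted gene had 33, 37 and 42 counts in Igf2 cKO replicates 1 to 3, against 60, 43 and 39 in control replicates 1 to 3, with a log2 fold change of -0.31 (Igf2 cKO over control, edgeR adjusted p = 0.751). Being summed over all cells and the whole gene, these counts do not check deletion of the floxed exon. Markers of mature fibres were abundant in every library, with 11 markers summing to between 102900 and 121900 CPM (counts scaled to library size) in Igf2 cKO muscle and between 125200 and 151300 CPM in control muscle, ranges that do not overlap. Of these 11 markers, however, 0 had an unadjusted p under 0.05 by edgeR, 4 lay above 0 and 7 below. The libraries of the genotypes stayed apart for 2 of them, both lower in Igf2 cKO muscle, where 7.67% of all tested genes did so. Igf2 cKO replicate 2 stood apart, with 10.6% of its counts from mitochondrial DNA genes, against 4.88% to 8.43% in the other libraries, and with the largest distances within a genotype. Without it 0 of the genes described here were called by edgeR, and the values are given where it was the exception. The part of the fibre markers in the differences given below was not tested. All 10 genes have the same start, end and strand in the table as in GENCODE release M21 (GRCm38).

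The 10 genes covered a wide span of levels. By the mean over all 6 libraries of the authors' FPKM, which divides by gene length, the order from high to low was Myf6, Mef2c, Sdc4, Myod1, Myog, Cdh15, Myf5, Pax7, Mymk and Mymx. Myf6, between 53.9 and 88.7 FPKM, stood above every other gene of the set in every library. Mef2c ran from 23.8 to 31.2 FPKM, Sdc4 from 13.2 to 27.0 FPKM and Myod1 from 9.47 to 24.3 FPKM, so neighbours in this stretch were not separated by their spread. Myog (8.27 to 16.4 FPKM) and Cdh15 (6.78 to 8.66 FPKM) overlapped as well. A gap lay below Cdh15, since Myf5 did not pass 2.83 FPKM in any library. The ranges of Myf5, Pax7 and Mymk overlapped, and the lowest gene, Mymx, had at most 0.628 FPKM. By the means of each genotype, Mymk was the ninth in Igf2 cKO muscle (0.626 FPKM) and the seventh in control muscle (2.52 FPKM), while Pax7 was the seventh in Igf2 cKO muscle (1.64 FPKM) and the ninth in control muscle (1.54 FPKM). Myod1 stood above Myog in Igf2 cKO muscle and just below it in control muscle.

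**Figure D1:**
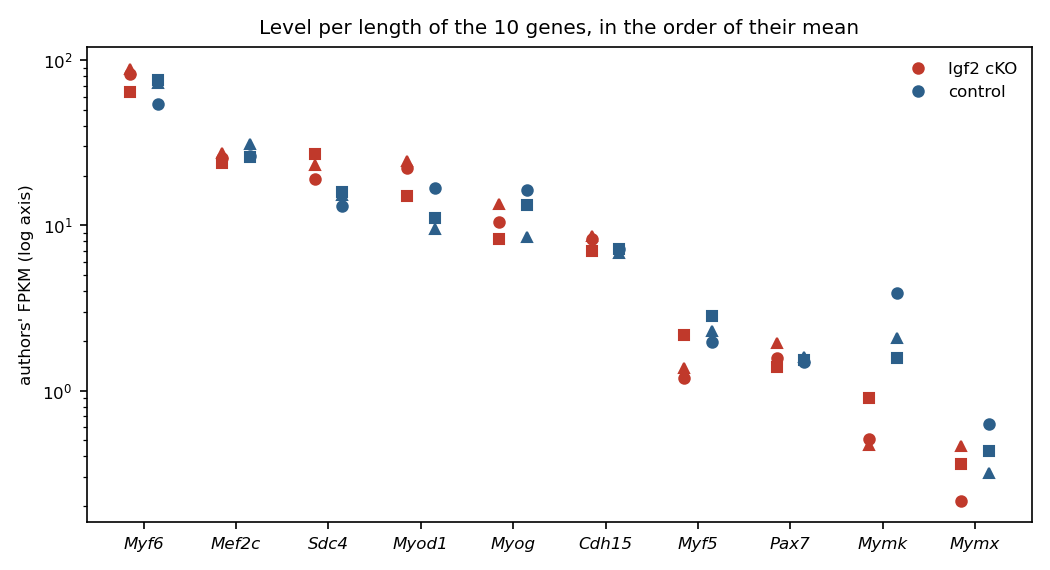
Authors' FPKM (log axis) of the 10 genes, ordered from left to right by the mean over all 6 libraries. Points are single libraries, with circles, squares and triangles for replicates 1, 2 and 3, Igf2 cKO in red at the left of each pair and control in blue at the right. By mean, Myf6 lies highest and Mymx lowest in each genotype, and Mymk has its 3 Igf2 cKO points below its 3 control points.

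Promoter sequences, from 250 bases before to 50 bases after a transcript start (RefSeq, GRCm38.p6), were at hand for 6 of the 10 genes (Pax7, Cdh15, Sdc4, Myf5, Myog and Mef2c). They were searched on both strands for the E-box CANNTG, the letters that myogenic factors bind, for its form CAGCTG and for the MEF2 consensus. CANNTG occurred in 72.3% of all 32851 promoters of this length, CAGCTG, which is also counted as CANNTG, in 16.3% and the MEF2 consensus in 3.19%. Among the 6 genes CANNTG was found in Cdh15 (4 matches), Myog (2 matches) and 2 of the 3 Mef2c promoters. Neither CAGCTG nor an exact match to the MEF2 consensus, taken as YTAWWWWTAR, was found in any. Here Y is C or T, W is A or T and R is A or G. The Myog window holds ctatatttat, which departs from that pattern in its last letter and was not counted, so a MEF2 site in Myog is not excluded. Myog and Cdh15 are shown because their E-boxes can be set beside the levels of Myod1 given with the results, and Sdc4 because it is the gene with a promoter sequence whose genotypes did not overlap. Capitals mark CANNTG, which in Myog begins 138 and 12 bases before the start, and Sdc4 has no match. Myog lies at chr1:134289754-134290053 on the plus strand, Cdh15 at chr8:122848124-122848423 on the plus strand and Sdc4 at chr2:164443139-164443438 on the minus strand.
Myog: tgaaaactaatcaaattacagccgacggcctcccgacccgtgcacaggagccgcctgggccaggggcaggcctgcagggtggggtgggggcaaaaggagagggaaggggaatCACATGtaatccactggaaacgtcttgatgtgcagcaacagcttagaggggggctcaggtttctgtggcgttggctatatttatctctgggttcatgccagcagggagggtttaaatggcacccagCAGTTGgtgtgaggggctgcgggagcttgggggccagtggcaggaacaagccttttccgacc
Cdh15: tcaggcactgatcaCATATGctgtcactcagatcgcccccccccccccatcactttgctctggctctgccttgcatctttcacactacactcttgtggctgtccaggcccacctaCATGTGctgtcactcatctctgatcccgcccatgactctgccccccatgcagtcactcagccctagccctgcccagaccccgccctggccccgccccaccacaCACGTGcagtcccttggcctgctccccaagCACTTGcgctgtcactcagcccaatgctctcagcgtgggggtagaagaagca
Sdc4: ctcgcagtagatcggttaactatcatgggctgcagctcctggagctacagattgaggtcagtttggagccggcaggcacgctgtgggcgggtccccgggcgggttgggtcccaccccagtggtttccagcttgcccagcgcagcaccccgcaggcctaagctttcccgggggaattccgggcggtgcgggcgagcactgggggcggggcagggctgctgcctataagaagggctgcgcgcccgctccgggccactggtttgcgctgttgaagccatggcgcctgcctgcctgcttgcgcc
A match in these letters is a description of the window and does not show binding.

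The comparison of genotypes asks whether these regulators differ in muscle labelled as lacking Igf2. No gene of the set was called. Of the 9 genes that passed the filter on low counts, edgeR's quasi-likelihood test with Benjamini-Hochberg adjustment called 0 at an adjusted p under 0.05, where 0.249% of all 14867 tested genes were called. At an unadjusted p under 0.05 there were 3 of the 9, against 9.93% of all tested genes. These 3 were Mymk, lower in Igf2 cKO muscle, and Sdc4 and Myod1, both higher. For 2 of the 9, Sdc4 and Mymk, the libraries of the genotypes did not overlap, where 15.5% of all tested genes had such groups (7.83% higher and 7.67% lower). The median log2 fold change (Igf2 cKO over control) was 0.09 over the 9 genes and 0.0038 over all tested genes, with 5 of the 9 above 0 and 4 below. DESeq2 called 2 of the genes (Sdc4 and Mymk), where it called 1.48% of the same 14867 genes. With no filter on low counts edgeR called 3 (these and Myod1), where it called 1.07% of 26318 genes, so the absence of calls depends on the test and the filter.

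**Figure D2:**
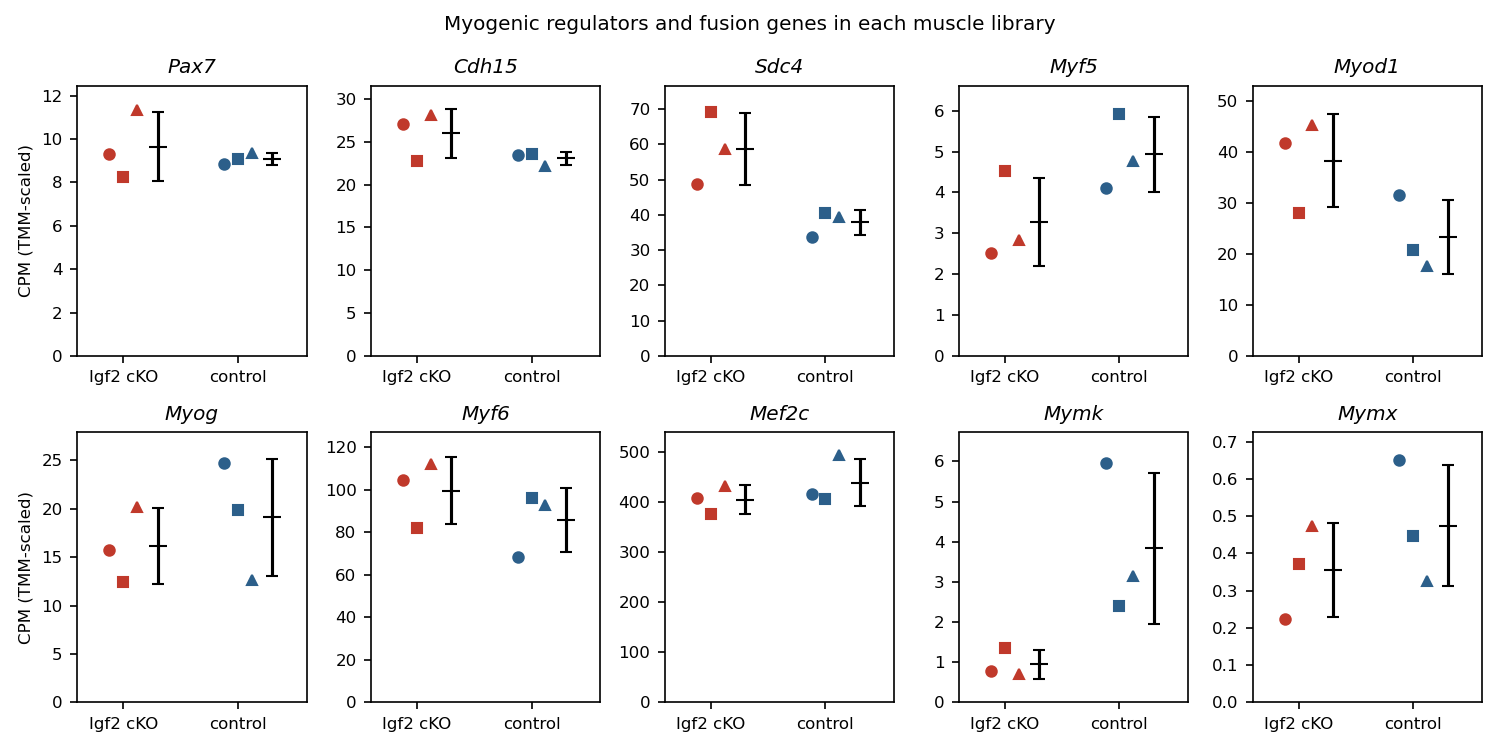
CPM, scaled by TMM library sizes, of each gene in each library, on axes that start at 0. Red points are Igf2 cKO and blue points control libraries (circle, square and triangle for replicates 1, 2 and 3), and the black bar gives the mean and SD of 3 libraries. The groups are apart for Sdc4 and Mymk and overlap for the other 8 genes.

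Of the 3 satellite cell genes, Sdc4 was the one whose genotypes did not overlap. Pax7 (ENSMUSG00000028736), the transcription factor that marks satellite cells, had 9.63 ± 1.58 CPM in Igf2 cKO muscle and 9.08 ± 0.265 CPM in control muscle (SD, n = 3 each). Its counts ran from 133 to 192 in Igf2 cKO libraries and from 143 to 163 in control libraries, and the control values lay within the spread of the others. The edgeR fit put its log2 fold change at 0.09 ± 0.16 (SE), with a 95% interval of -0.27 to 0.44 and an adjusted p of 0.91.

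Cdh15 encodes M-cadherin, the adhesion protein between a satellite cell and its fibre. It was at 27.1, 22.7 and 28.1 CPM in Igf2 cKO replicates 1 to 3, against 23.4, 23.6 and 22.2 CPM in control replicates 1 to 3. Replicates 1 and 3 of Igf2 cKO lay above the controls and replicate 2 within them. Its log2 fold change was 0.17 ± 0.11 (SE, edgeR adjusted p = 0.661), beside 4 E-box matches in its promoter, and 0.26 without Igf2 cKO replicate 2 (adjusted p = 0.428). The annotated gene Gm20388 overlaps Cdh15 on the same strand and is listed at 0 in every library.

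Sdc4 encodes the heparan sulfate proteoglycan syndecan-4, a cell surface coreceptor for growth factors that is used to identify satellite cells and is also made by many other cell types. It reached 48.7, 69.1 and 58.6 CPM in Igf2 cKO replicates 1 to 3, against 33.8, 40.6 and 39.3 CPM in control replicates 1 to 3. Every Igf2 cKO library was above every control library. Means were 58.8 ± 10.2 CPM in Igf2 cKO and 37.9 ± 3.63 CPM in control muscle (SD, n = 3 each). This is 1.55-fold, or 0.63 ± 0.14 on the log2 scale (SE, 95% interval 0.31 to 0.95). The edgeR adjusted p of 0.169 misses the threshold, while DESeq2 gave an adjusted p of 0.0139 and edgeR with no filter on low counts gave 0.00909. With any 1 library left out the log2 fold change lay between 0.50 and 0.75. In the authors' deposited table the 3 comparisons of single libraries gave log2 fold changes of 0.53, 0.77 and 0.58 for Sdc4, each with an adjusted p of 1.0.

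Among the relatives of these surface proteins, Sdc1, another syndecan, was at 22.8 ± 2.67 CPM in Igf2 cKO and 15.9 ± 1.80 CPM in control muscle (SD, n = 3 each). Its log2 fold change was 0.52 (edgeR adjusted p = 0.206), and its groups did not overlap. Sdc2 and Sdc3, chosen after their values were seen, were at -0.18 and 0.10. Cdh4, which encodes R-cadherin, was at -0.75 (edgeR adjusted p = 0.463). It had 18.2, 7.05 and 17.4 CPM in Igf2 cKO replicates 1 to 3, and its log2 fold change was -0.43 without replicate 2 (edgeR adjusted p = 0.359). Of 10 tested syndecan and cadherin genes, 0 were called by edgeR or by DESeq2, and the median log2 fold change was -0.10. At an unadjusted p under 0.05, 2 were higher and 1 lower, against 9.93% of all tested genes in either direction.

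Because whole muscle was sequenced, fewer cells of a type and less RNA per cell cannot be told apart, and Sdc4 is not limited to satellite cells. Markers of other cell types were therefore summed in each library. The endothelial markers (10 of 10 tested) summed to between 1288 and 2054 CPM in Igf2 cKO and between 1728 and 1838 CPM in control muscle. For fibro-adipogenic markers (10 of 10 tested) the sums were 7171 to 10650 CPM in Igf2 cKO and 5918 to 11480 CPM in control muscle. Macrophage markers (10 of 10 tested) summed to 394.3 to 560.3 CPM in Igf2 cKO and 337.6 to 673.9 CPM in control muscle. Smooth muscle and pericyte markers (8 of 8 tested) came to 1455 to 1814 CPM in Igf2 cKO and 1456 to 1590 CPM in control muscle. All these ranges overlapped between genotypes and no marker was at 0 in all libraries. Of the 10 endothelial markers 2 were lower and 0 higher at an unadjusted p under 0.05, and 2 had non-overlapping groups, both lower. Of the 10 macrophage markers 2 were lower and 0 higher at that p, 1 had non-overlapping groups (lower), and 9 lay below 0. Among fibro-adipogenic markers 0 passed that p and 0 had non-overlapping groups. Of the 8 smooth muscle and pericyte markers, 3 were higher at an unadjusted p under 0.05 and did not overlap between genotypes, the direction of Sdc4. In this way 0 were lower. Over all tested genes 7.83% had non-overlapping groups in the higher direction and 7.67% in the lower. An unadjusted p under 0.05 was reached by 9.93% of them in either direction. The 3 smooth muscle and pericyte markers were Acta2, Myh11 and Cnn1, at log2 fold changes of 0.80, 0.34 and 1.09. Of these, Myh11 and Cnn1 were chosen after their values were seen. Acta2, smooth muscle actin, was at 237 ± 34.4 CPM in Igf2 cKO and 136 ± 16.9 CPM in control muscle (SD, n = 3 each, edgeR adjusted p = 0.0956). DESeq2 called Acta2 (adjusted p = 5.4e-05), as did edgeR with no filter on low counts (adjusted p = 0.0012). The part of smooth muscle in the Sdc4 difference was not tested.

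Further genes of quiescent satellite cells and the Notch pathway, which holds these cells in quiescence, lay in both directions. Of 20 tested genes 0 were called by edgeR or by DESeq2, 13 lay above 0 and 7 below, and the median log2 fold change was 0.11. At an unadjusted p under 0.05 there were 3 higher and 3 lower, against 9.93% of all tested genes in either direction. The groups did not overlap for 5 of the 20 in the higher direction, against 7.83% of all tested genes. In the lower direction they did not overlap for 3, against 7.67%. Chodl, which encodes the membrane protein chondrolectin, was at 34.4 ± 2.53 CPM in Igf2 cKO and 25.6 ± 3.47 CPM in control muscle (SD, n = 3 each, log2 fold change 0.42, edgeR adjusted p = 0.276). Cxcr4, a chemokine receptor of satellite cells and of leukocytes, was at 8.18 ± 1.42 CPM in Igf2 cKO and 12.8 ± 1.98 CPM in control muscle (SD, n = 3 each, log2 fold change -0.65, edgeR adjusted p = 0.263). Calcr, the calcitonin receptor that marks quiescent cells, lay at 0.11 and was chosen after its values were seen. Pax3, the paralogue of Pax7, was too sparse for the test, with 0, 0 and 1 counts in Igf2 cKO replicates 1 to 3, against 15, 5 and 3 counts in control replicates 1 to 3, and was likewise chosen after its values were seen.

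The 4 myogenic factors, all basic helix-loop-helix proteins that bind the E-box, differed among themselves in direction. Myod1 (ENSMUSG00000009471, chromosome 7, 46376474 to 46379099, plus strand) is a determination factor that satellite cells turn on when activated. Which cells of the muscle gave its RNA here was not tested. Myod1 was at 41.8, 28.0 and 45.3 CPM in Igf2 cKO replicates 1 to 3, against 31.7, 20.8 and 17.7 CPM in control replicates 1 to 3. Igf2 cKO replicates 1 and 3 were the highest of the 6 libraries, while replicate 2 lay below control replicate 1, so the groups overlap. Means were 38.3 ± 9.16 CPM in Igf2 cKO and 23.4 ± 7.33 CPM in control muscle (SD, n = 3 each). This 1.64-fold difference, 0.71 ± 0.24 on the log2 scale (SE, 95% interval 0.17 to 1.26), had an edgeR adjusted p of 0.368. Without Igf2 cKO replicate 2 it was 0.89 on the log2 scale (adjusted p = 0.182). DESeq2 gave an adjusted p of 0.141 and edgeR with no filter on low counts 0.0272. In the authors' deposited table the log2 fold changes of Myod1 were 0.40, 0.43 and 1.36, and the adjusted p in the comparison of replicates 3 was 0.162.

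Myf5 (ENSMUSG00000000435), the earliest of these factors in development and a marker of satellite cells poised to divide, had low counts. It was at 2.51, 4.52 and 2.84 CPM in Igf2 cKO replicates 1 to 3, against 4.11, 5.93 and 4.77 CPM in control replicates 1 to 3. Igf2 cKO replicates 1 and 3 were the lowest libraries, and replicate 2 lay within the controls. Myf5 had a log2 fold change of -0.59 ± 0.27 (SE), a 95% interval of -1.21 to 0.03 and an edgeR adjusted p of 0.528. Without Igf2 cKO replicate 2 it was -0.88 (adjusted p = 0.277).

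Myf6, the factor most abundant in adult fibres, is the neighbour of Myf5 on chromosome 10, on the same strand, with 6718 bases between the genes. It was at 104, 81.9 and 112 CPM in Igf2 cKO replicates 1 to 3, against 68.5, 95.8 and 92.6 CPM in control replicates 1 to 3. Its groups overlapped, with a log2 fold change of 0.22 ± 0.16 (SE, edgeR adjusted p = 0.729), or 0.34 without Igf2 cKO replicate 2 (adjusted p = 0.483). Per library, the ratio of Myf6 to Myf5 FPKM was 68.6, 29.9 and 65.1 in Igf2 cKO replicates 1 to 3, against 27.5, 26.7 and 31.99 in control replicates 1 to 3. The ratio was high in Igf2 cKO replicates 1 and 3 and within the control values in replicate 2.

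Myog encodes myogenin, the differentiation factor downstream of MyoD, and its promoter holds the 2 E-box matches shown. It was at 15.8, 12.4 and 20.2 CPM in Igf2 cKO replicates 1 to 3, against 24.7, 19.9 and 12.7 CPM in control replicates 1 to 3. The groups overlapped over most of their range. For Myog edgeR gave -0.24 ± 0.25 on the log2 scale (SE, 95% interval -0.82 to 0.33, adjusted p = 0.82), and with any 1 library left out it lay between -0.46 and -0.01. In the authors' deposited table it was -0.65, -0.67 and 0.68 for replicates 1, 2 and 3, with an adjusted p of 1.0 each.

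Myog and Myod1 thus lay on opposite sides of 0, neither past the threshold. The ratio of Myog to Myod1 FPKM in a library was 0.470, 0.554 and 0.556 in Igf2 cKO replicates 1 to 3, against 0.972, 1.19 and 0.891 in control replicates 1 to 3. Every Igf2 cKO library had less Myog per Myod1 than every control library, with means of 0.527 ± 0.0487 in Igf2 cKO and 1.02 ± 0.155 in control muscle (SD, n = 3 each). This ratio, like the others between genes of the set, was chosen after its values were seen and is given without a test. Myod1 per Pax7 was 14.1, 10.7 and 12.6 in Igf2 cKO replicates 1 to 3, against 11.3, 7.21 and 5.97 in controls. Myf5 per Pax7 was 0.758, 1.54 and 0.703 in Igf2 cKO replicates 1 to 3, against 1.31, 1.84 and 1.44 in controls. Both ratios to Pax7 overlapped between genotypes. The cells that gave the Myod1 and Myog RNA were not identified, so the ratio of Myog to Myod1 does not describe a single cell type.

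**Figure D3:**
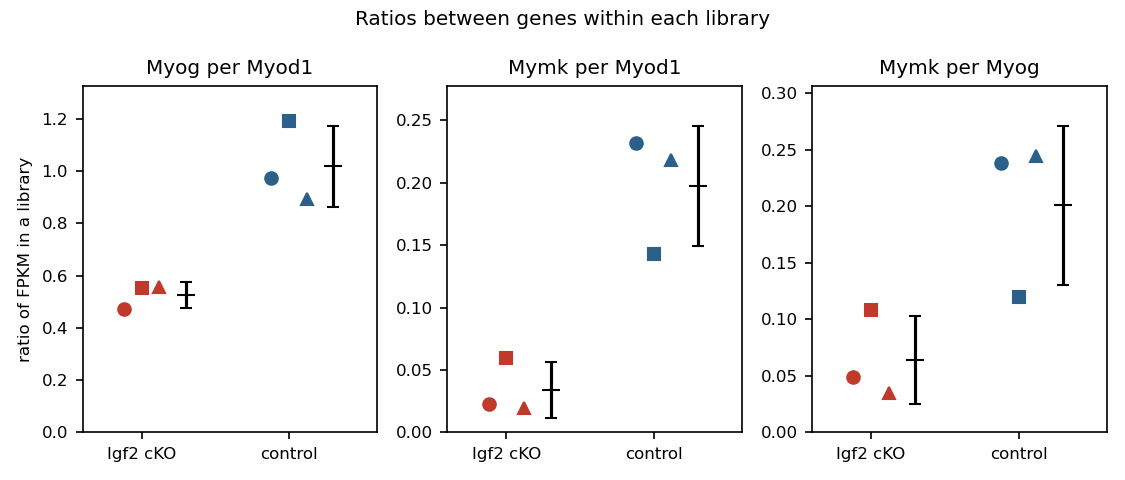
Ratio of the authors' FPKM of 2 genes within each library, on axes that start at 0, for Myog per Myod1, Mymk per Myod1 and Mymk per Myog. Red points are Igf2 cKO and blue points control libraries, with the mean and SD of 3 libraries as a black bar. All 3 ratios are lower in each Igf2 cKO library than in each control library, with Mymk per Myog closest to overlap. They were picked after their values were seen. Myf6 per Myf5, Myod1 per Pax7 and Myf5 per Pax7, which overlap between genotypes, are not drawn.

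MEF2 proteins act with the myogenic factors at fibre genes. Mef2c, which is also expressed in endothelium and smooth muscle, was the gene of the set with the most counts, 6081 to 7310 counts in Igf2 cKO and 7280 to 7684 counts in control libraries. Its mean was 405 ± 28.0 CPM in Igf2 cKO and 439 ± 47.4 CPM in control muscle (SD, n = 3 each). In log2 terms that was -0.11 ± 0.13 (SE, 95% interval -0.40 to 0.17, edgeR adjusted p = 0.835). Among its relatives, Mef2a was at 0.00 and Mef2d at -0.20 (edgeR adjusted p = 0.991 and 0.614), both chosen after their values were seen.

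Of 18 tested genes of the MEF2 family and of myogenic cofactors, 0 were called by edgeR and 2 by DESeq2, 8 lay above 0 and 10 below, and the median log2 fold change was -0.08. At an unadjusted p under 0.05 there were 3, all lower, against 9.93% of all tested genes in either direction. Hdac9, a class II histone deacetylase that represses MEF2 and is itself a MEF2 target, was at 7.33 ± 0.638 CPM in Igf2 cKO and 13.3 ± 1.45 CPM in control muscle (SD, n = 3 each, log2 fold change -0.86, edgeR adjusted p = 0.0745). Six4, a homeodomain factor upstream of the myogenic factors in the embryo, was at 23.3 ± 3.12 CPM in Igf2 cKO and 34.8 ± 2.48 CPM in control muscle (SD, n = 3 each, log2 fold change -0.58, edgeR adjusted p = 0.141). The libraries of the genotypes did not overlap for either gene, and they were the 2 called by DESeq2, with adjusted p of 0.00104 for Hdac9 and 0.0148 for Six4.

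The myogenic factors bind DNA as dimers with E proteins, and Id proteins and several repressors hinder them. Of 17 tested genes of this kind 0 were called by edgeR and 1 by DESeq2, 5 had an unadjusted p under 0.05, all lower, 13 lay below 0 and 4 above, and the median log2 fold change was -0.10. For 6 of the 17 the libraries of the genotypes did not overlap in the lower direction, where 7.67% of all tested genes did, and for 0 in the higher direction. Bhlhe40, a repressor that responds to stress and to the clock, was at 155 ± 25.4 CPM in Igf2 cKO and 233 ± 20.3 CPM in control muscle (SD, n = 3 each, log2 fold change -0.59, edgeR adjusted p = 0.194, DESeq2 adjusted p = 0.0107). Snai1, a zinc finger repressor that competes for E-boxes, was at 2.96 ± 0.0966 CPM in Igf2 cKO and 5.30 ± 0.913 CPM in control muscle (SD, n = 3 each, log2 fold change -0.84, edgeR adjusted p = 0.206). The E protein gene Tcf3 was at -0.28 and the inhibitor gene Id2 at -0.67 (edgeR adjusted p = 0.358 and 0.305), while Tcf12, Id1 and Id3 lay at -0.10, 0.07 and -0.04. These 5 were chosen after their values were seen. The 17 genes together summed to between 712.1 and 755.1 CPM in Igf2 cKO and between 811.8 and 840.3 CPM in control muscle. This separation rested on Bhlhe40, since without it, a comparison chosen after seeing the data, the other 16 summed to between 566.1 and 578.4 CPM in Igf2 cKO and between 565.1 and 623.8 CPM in control muscle, which overlap.

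Mymk had the largest difference of the set. Its protein, myomaker, is the multipass membrane protein that starts the fusion of myoblasts, and it is found in differentiating myoblasts rather than in resting adult muscle. Mymk (ENSMUSG00000009214, chromosome 2, 27061636 to 27072179, minus strand) had 14, 22 and 12 counts in Igf2 cKO replicates 1 to 3, against 110, 43 and 48 counts in control replicates 1 to 3. As CPM these were 0.781, 1.36 and 0.709 in Igf2 cKO and 5.95, 2.41 and 3.14 in control muscle. Each Igf2 cKO library was below each control library, and control replicate 1 stood well above the other controls. Means were 0.951 ± 0.358 CPM in Igf2 cKO and 3.83 ± 1.87 CPM in control muscle (SD, n = 3 each).

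The log2 fold change of Mymk was -2.01 ± 0.43 (SE, 95% interval -2.99 to -1.04), that is 4.04-fold lower in Igf2 cKO muscle. With an edgeR adjusted p of 0.162 it failed the correction, at rank 114 of the 14867 unadjusted p-values. DESeq2 gave an adjusted p of 0.00185, edgeR with no filter on low counts 0.00135 and limma-voom 0.221. Without control replicate 1 the log2 fold change was -1.54, and with any 1 library left out it lay between -2.36 and -1.54. In the authors' deposited table Mymk had a log2 fold change of -2.92 in the comparison of replicates 1 (adjusted p = 0.00017), -0.82 in that of replicates 2 (adjusted p = 1.0) and -2.13 in that of replicates 3 (adjusted p = 0.0682). By that table the share of genes called lower was 0.245% in replicates 1, 0.115% in replicates 2 and 0.187% in replicates 3. The series gives its own cut-off, a log2 fold change beyond 1 in size with p below 0.05 before adjustment. Applied to the edgeR fit of all 6 libraries, Mymk was the 1 gene of the set to pass it, as 1.58% of all tested genes did. Applied to the single-library values of the authors' deposited table, Mymk passed in the comparisons of replicates 1 and 3 and failed in that of replicates 2, and Myod1 passed in that of replicates 3.

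**Figure D4:**
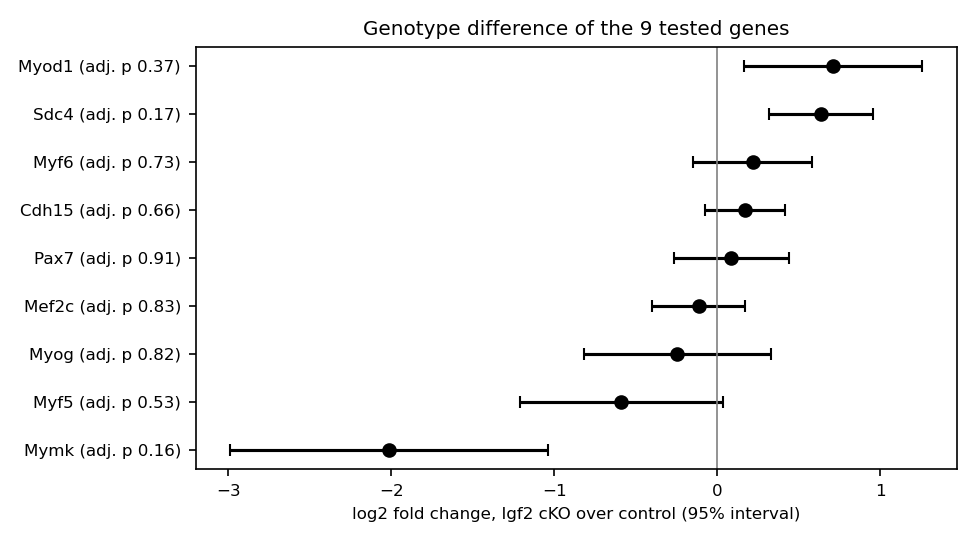
Log2 fold change, Igf2 cKO over control, of the 9 tested genes with the 95% interval of edgeR's fit, ordered from high at the top to low at the bottom, with the adjusted p beside each name. The intervals of Myod1, Sdc4 and Mymk do not include 0, and no adjusted p passes 0.05.

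Ratios of Mymk to the factors upstream of it reuse the Mymk counts above, so they are not separate evidence for its difference. The ratio of Mymk to Myod1 FPKM was 0.0230, 0.0600 and 0.0193 in Igf2 cKO replicates 1 to 3, against 0.232, 0.143 and 0.218 in control replicates 1 to 3. Relative to Myog the ratios were 0.0490, 0.108 and 0.0347 in Igf2 cKO replicates 1 to 3, against 0.238, 0.120 and 0.245 in control replicates 1 to 3. Igf2 cKO replicate 2 and control replicate 2 came closest to each other in both ratios.

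Mymx encodes myomixer, the small membrane protein that completes fusion with myomaker. It had 4, 6 and 8 counts in Igf2 cKO replicates 1 to 3, against 12, 8 and 5 counts in control replicates 1 to 3, did not pass the filter and was not tested in the main comparison. The groups overlapped. With no filter edgeR put it at -0.43 ± 0.66 on the log2 scale (SE, adjusted p = 0.862), and no difference was detectable at this depth.

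Other genes of the fusion machinery, which carry adhesion, engulfment and actin remodelling in fusing myoblasts, gave no call. Of 22 tested genes 0 were called by edgeR or by DESeq2, 0 had an unadjusted p under 0.05 and 0 had non-overlapping groups, with 14 above 0, 8 below and a median of 0.03. The tetraspanin genes Cd9 and Cd81 had the smallest p, with log2 fold changes of 0.24 (edgeR adjusted p = 0.679) and 0.17 (edgeR adjusted p = 0.689). Cdon and Boc, surface receptors of the myoblast that promote differentiation, were at -0.15 and 0.05, and Myof, which encodes the fusion protein myoferlin, at 0.03. Cdon, Boc and Myof were chosen after their values were seen. Nphs1 was at 0 counts in all 6 libraries.

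Genes that the developing, regenerating or denervated fibre expresses under the myogenic factors were also read out. Of 16 tested genes 0 were called by edgeR and 1 by DESeq2, 5 lay above 0 and 11 below, and the median log2 fold change was -0.07. At an unadjusted p under 0.05 there were 1 higher (Ncam1) and 1 lower (Actc1). Actc1, cardiac actin, which embryonic and regenerating skeletal muscle also makes, was at 891 ± 353 CPM in Igf2 cKO and 2411 ± 687 CPM in control muscle (SD, n = 3 each, log2 fold change -1.44, edgeR adjusted p = 0.162, DESeq2 adjusted p = 4.3e-05). Its 3 Igf2 cKO libraries lay below its 3 control libraries. Ncam1, an adhesion molecule of satellite cells and denervated fibres, was at 10.7 ± 0.561 CPM in Igf2 cKO and 8.25 ± 1.31 CPM in control muscle (SD, n = 3 each, log2 fold change 0.37, edgeR adjusted p = 0.484). The embryonic and perinatal myosins Myh3 and Myh8 were at -0.03 and -0.55 (edgeR adjusted p = 0.987 and 0.731). For the acetylcholine receptor gene Chrna1 and the cell cycle and stress gene Gadd45a, which myogenin is known to raise after denervation in mice, the values were -0.21 and -0.03. Myh3, Myh8, Chrna1 and Gadd45a were chosen after their values were seen.

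Most cell cycle genes had values below 0, as Mymk did. Of 17 tested genes of proliferation 0 were called by edgeR and 3 by DESeq2, which called 1.48% of all tested genes. Of the 17, 15 lay below 0 and 2 above, and the median log2 fold change was -1.21. At an unadjusted p under 0.05 there were 9, all lower, against 9.93% of all tested genes in either direction. For 8 of the 17 the groups did not overlap in the lower direction, where 7.67% of all tested genes did. The sums over the whole list overlapped, at 65.4 to 82.9 CPM in Igf2 cKO and 79.6 to 112.7 CPM in control muscle. Ccna2, the cyclin of DNA replication, was at 0.973 ± 0.398 CPM in Igf2 cKO and 3.37 ± 0.944 CPM in control muscle (SD, n = 3 each, edgeR adjusted p = 0.141, DESeq2 adjusted p = 0.00266). Cenpf, a kinetochore gene, was at 0.713 ± 0.381 CPM in Igf2 cKO and 2.40 ± 0.597 CPM in control muscle (SD, n = 3 each, edgeR adjusted p = 0.201, DESeq2 adjusted p = 0.0218). These genes are expressed in any dividing cell. All 10 lymphocyte markers, of which 3 passed the filter, summed to between 2.19 and 3.459 CPM in Igf2 cKO and between 3.466 and 5.37 CPM in control muscle. These sums almost touch. Of the 3 tested markers 1 lay above 0 (Cd4, log2 fold change 1.10, edgeR adjusted p = 0.655) and 2 below, 1 of these at an unadjusted p under 0.05. The part of dividing cells or lymphocytes in the Mymk difference was not tested.

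**Figure D5:**
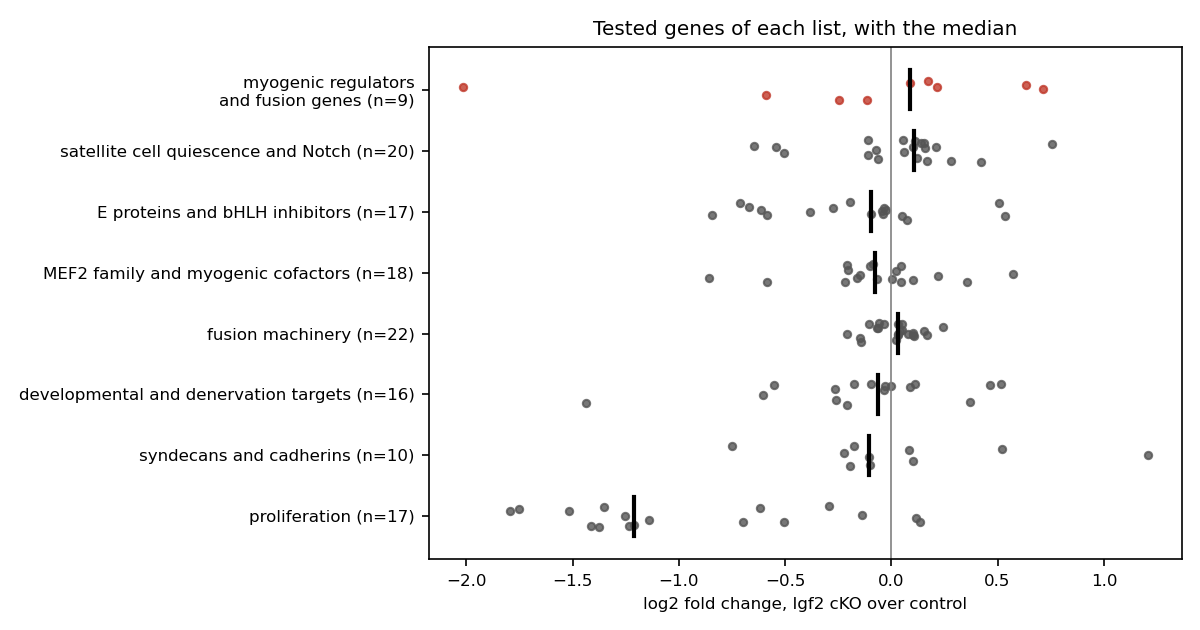
Log2 fold change, Igf2 cKO over control, of each tested gene (points, spread vertically for legibility) in the set described here (red) and in 7 related lists (grey), with the median of each as a black bar. Medians lie between -0.10 and 0.11 except for the proliferation list at -1.21, and Mymk is the lowest point of all lists.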

How the data were processed

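Total RNA of muscle from 3 Igf2 cKO and 3 control mice was sequenced on a NovaSeq by a service company, per the labels. Aligner, counting tool and strand setting were not given in the sources used here. The deposited table holds, per its headers, the authors' raw counts per gene, FPKM and gene lengths. It also holds the authors' log2 fold changes and p-values from 3 comparisons of single libraries. A further 6 columns that match no sample title were left out.

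Counts were tested with edgeR 4.0.16 (R 4.3.3) using TMM factors, filterByExpr, the quasi-likelihood test with genotype as the single term and Benjamini-Hochberg adjustment over 14867 genes, and genes below an adjusted p of 0.05 were called. CPM use TMM library sizes. Libraries of 1 genotype differed by more than counting noise (chi-square per degree of freedom 15.7 to 84.7, highest between Igf2 cKO replicates 1 and 2). The genes and lists were chosen with earlier results of these data known. Named beside the 10 genes were Igf2, the called members of each pathway list or, with fewer than 2 called, the 2 lowest in p, the 2 most abundant markers of each cell type and 2 genes of similar pattern for each tested gene. Other genes are said to be chosen later. Alternatives were other size factors, filters and thresholds, DESeq2 1.42.0, limma-voom (limma 3.58.1), a replicate block and leaving out each library.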

Additional observations from a re-analysis of the deposited data

How the results depend on the processing

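The count of called genes over all tested genes, 37, became 282 with no filter on low counts, 220 with DESeq2, 62 at an adjusted p under 0.1 and 235 by the rule the series states, and with 1 library left out it was lowest at 8 (without control replicate 1) and highest at 68 (leaving out Igf2 cKO replicate 2). Of the 10 genes, 0 were called in the main comparison, 3 with no filter on low counts, 2 with DESeq2 and 1 by the rule the series states, and 0 with any 1 library left out. The cause was not tested. Other size factors, library sizes without mitochondrial DNA genes, a CPM of at least 1 in 3 libraries and limma-voom called 0 of them.

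Of 126 alternative values of the 9 tested genes, 125 kept their direction. The exception was Pax7, whose log2 fold change ran from -0.049 (without Igf2 cKO replicate 3) to 0.19. With 1 library left out the direction also turned for these leading genes of marker lists and genes of similar pattern, whose log2 fold changes ran from -0.91 to 0.65 (Cd79b), -0.20 to 0.068 (Cdh5), -0.50 to 0.97 (Cfd), -0.69 to 0.023 (Col3a1), -0.46 to 0.11 (Epor), -0.071 to 0.31 (Fabp4), -0.053 to 0.21 (Gemin2), -0.11 to 0.27 (Gsn), -0.22 to 0.077 (Pecam1), -0.033 to 0.18 (Prps1), -0.11 to 0.10 (Rgs5) and -0.066 to 0.19 (Zfp202). None of these was called.

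The replicate number does not pair the libraries by the labels, and the deviations of same-numbered libraries correlated at 0.163, 0.0581 and -0.0425. With the number as a replicate block 35 genes were called in all, 0 of the 10 among them, and Mymk stood at -1.95 (adjusted p = 0.181). The order of the 10 genes was the same by CPM per kilobase. Depth limits Mymx most, with at most 12 counts in a library.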

Other observations

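For each of the 9 tested genes the 2 other genes with the most similar pattern were looked up among tested genes with a mean of at least 1 CPM, as the smallest root mean square difference of centred log2 CPM over the 6 libraries. Likeness over so few libraries is a description only. The genes nearest to Mymk were both of mitosis, Cenpf at 0.287 and Kif11, a spindle motor, at 0.397 log2 units. Kif11 had 1.26 ± 0.213 CPM in Igf2 cKO and 3.05 ± 1.42 CPM in control muscle (SD, n = 3 each). Nearest to Sdc4 were Rasgrp2 (0.0725) and Trim45 (0.0756), to Myod1 Aacs (0.126) and Ccdc134 (0.154), to Myf5 Asxl3 (0.10) and Art5 (0.114), and to Myog Acss3 (0.0577) and Epor (0.0841). For genes that varied little the nearest were Zfp202 and Prps1 (Pax7), Stam2 and Adam9 (Cdh15), Tmem175 and Gemin2 (Myf6), and Trim23 and Wdr7 (Mef2c), each within 0.0731 log2 units.

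Further marker lists had overlapping sums. Schwann cell markers reached a sum of 1182 CPM in Igf2 cKO and 717.1 CPM in control muscle, with 8 of 8 log2 fold changes above 0 and 0 called by edgeR, 0 of them at an unadjusted p under 0.05. Adipocyte markers summed to between 664.8 and 1621 CPM in Igf2 cKO and between 519.9 and 924.4 CPM in control muscle, with 9 of 9 above 0 and 0 called by edgeR, 0 of them at an unadjusted p under 0.05.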
